A study of Mus musculus with 3 samples.

Results

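Coch, Otos, Otor, Pou3f4, Tbx18, Slc4a11, Slc4a10, Ptgds and Emilin2, 9 of the 32285 genes in the deposited count table, were followed through the cells of the mouse cochlea. They are genes known as marks of cochlear fibrocytes or as deafness genes, and the list was made with earlier results of these data known. Single-cell 3′ RNA libraries came from the cochleae of C57BL/6J mice in 3 groups. The control mice heard no noise, the HHL (hidden hearing loss) mice heard 110 dB noise lasting 2 h, and the NIHL (noise-induced hearing loss) mice heard 115 dB noise lasting 4 h with 3 days of exposure. Cochleae of the exposed mice were removed 6 h after the final noise, and 1 library was made from 6 mice per group. The cells stand in 1 table in which a barcode suffix of 1, 2 or 3 separates the libraries, and no label or header ties a suffix to a group. The libraries are therefore called library 1, 2 and 3, the 3 groups were not compared, and with 1 library each no test was run. Levels are summed UMIs (counted RNA molecules) of a gene per 1000000 UMIs of the same cells (CPM), and the intervals given are exact Poisson 95% intervals, or exact Clopper-Pearson intervals for shares, which cover counting error alone.

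Fibrocytes are the connective tissue cells of the spiral ligament, the outer wall of the cochlear duct, and of the spiral limbus. Some of them take up potassium and pass it through gap junctions to the stria vascularis, which drives the endocochlear potential, while others build the collagenous matrix that anchors the duct. Pou3f4 and Tbx18 encode transcription factors of the otic mesenchyme from which these cells arise. Coch encodes cochlin, an abundant secreted matrix protein whose human mutations cause the hearing loss DFNA9, while Otos and Otor encode the small secreted proteins otospiralin and otoraplin. Slc4a11 and Slc4a10 encode membrane transporters of the SLC4 family, Ptgds the secreted lipocalin-type prostaglandin D synthase, and Emilin2 a glycoprotein of elastic fibres.

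Promoters of 4 members are shown as examples. They run from 250 bases before to 50 bases after the annotated gene start, 5′ to 3′ on the gene's strand, and come from RefSeq on build GRCm38.p6, which is not the GRCm39 build of the count table. Of the 9 members 8 had an entry, and Slc4a11 had none. Capitals mark a match to TATAAA on either strand. The Coch promoter lies at chr12:51593091-51593390 (plus strand), Otor at chr2:143078143-143078442 (plus strand), Otos at chr1:92648792-92649091 (minus strand) and Ptgds at chr2:25469700-25469999 (minus strand).
Coch: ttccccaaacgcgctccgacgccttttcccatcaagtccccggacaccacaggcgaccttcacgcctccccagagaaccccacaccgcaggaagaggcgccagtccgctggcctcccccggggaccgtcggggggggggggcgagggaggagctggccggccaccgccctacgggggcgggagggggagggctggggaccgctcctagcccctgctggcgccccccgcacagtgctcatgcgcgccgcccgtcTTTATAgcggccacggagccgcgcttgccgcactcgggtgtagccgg
Otor: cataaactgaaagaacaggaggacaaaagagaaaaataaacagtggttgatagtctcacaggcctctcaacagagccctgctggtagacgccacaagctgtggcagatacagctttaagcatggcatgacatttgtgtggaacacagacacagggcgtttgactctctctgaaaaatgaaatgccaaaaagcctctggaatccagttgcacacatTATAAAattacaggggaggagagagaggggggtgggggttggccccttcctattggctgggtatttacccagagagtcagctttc
Otos: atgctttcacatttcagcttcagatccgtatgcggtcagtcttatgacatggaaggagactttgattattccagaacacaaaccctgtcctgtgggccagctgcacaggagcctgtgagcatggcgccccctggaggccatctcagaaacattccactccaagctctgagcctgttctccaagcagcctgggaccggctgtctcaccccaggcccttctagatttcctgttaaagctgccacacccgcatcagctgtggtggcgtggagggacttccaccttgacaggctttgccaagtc
Ptgds: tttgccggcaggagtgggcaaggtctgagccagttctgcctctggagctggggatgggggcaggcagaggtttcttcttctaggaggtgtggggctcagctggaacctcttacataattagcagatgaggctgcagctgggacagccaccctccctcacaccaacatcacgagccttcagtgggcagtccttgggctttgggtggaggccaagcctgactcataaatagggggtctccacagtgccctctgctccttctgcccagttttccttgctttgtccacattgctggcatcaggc

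The promoters differed in base composition. The Coch window had 73.7% G and C and 32 CpG dinucleotides, more CpG than 90.5% of the 32851 promoters in the RefSeq table, whose median was 7. The Otor window had 2 CpG and a TATAAA match that begins 35 bases before the gene start. The Ptgds window also had 2 CpG and the Otos window 6, and neither held TATAAA. In Coch the match, on the opposite strand, lay 3 bases after the gene start, and 1 of the 2 Slc4a10 promoters held a match 135 bases before it. TATAAA on either strand was in 13.6% of all promoters of this length. The octamer ATGCAAAT, read by POU factors, was in 1.74% of all promoters, and the T-box half-site AGGTGTNA in 3.03%. Neither was found in any of the 10 promoter windows of the 8 members, which says only that these letters are not in those windows.

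Barcodes with at least 500 UMIs, at least 200 genes and at most 20% mitochondrial UMIs numbered 16883, 9602 and 10703 in libraries 1, 2 and 3, with a median of 5464, 6294 and 8098 UMIs. Blood cells made up 92.2%, 85.1% and 78.5% of them. Cells were sorted in silico into gates by markers outside the 9 genes, and 4 gates were taken as fibrocytes or their nearest stroma, with 410, 416 and 829 cells. The ion-transport gate (Gjb2, Gjb6, Slc12a2, Atp1b1, Fxyd2, Ucma, Lypd2) held 35, 36 and 33 cells, and the matrix gate (Car3, Col9a1, Col9a2, Col9a3, Col11a1, Thbs4) 32, 37 and 84. The Moxd1-Fst gate (with Igfbp2 and Tgfbi) held 233, 223 and 503, and the Cldn11 gate (with Itih5, Sox8 and Nr2f2), whose markers strial basal cells share, 110, 120 and 209. The matrix gate was not well set off from the Moxd1-Fst gate: on average its cells had a UMI for 59.04% of their own markers and for 70.1% of the Moxd1-Fst markers. In all, 127 barcode sequences occurred in 2 libraries and 1 in all 3, which touched 10 of the 1655 fibrocyte cells.

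All 9 members were at least 2-fold higher in the 4 gates together than in fibroblasts (Dcn, Lum, Col3a1) in each of the 3 libraries, where 3.18% of the 13427 genes with at least 20 UMIs were, and none was 2-fold lower, where 3.58% of genes were. A count of 0 was set to a floor of 3 counts in these calls. The median log2 difference was 4.84 over the members and -0.08 over all genes tested. Otos and Slc4a11 lost this call when the mitochondrial maximum was lowered to 10%, which left 7 of the 9. The 4 gates were 4.45% of the cells, yet they held 62.5% to 73.8% of the UMIs of Coch, Otos, Otor, Pou3f4, Tbx18 and Slc4a11. The share was 38.6% for Ptgds, 36.3% for Slc4a10 and 15.04% for Emilin2, so these 3 genes had most of their UMIs elsewhere. Against blood cells all 9 members were 2-fold higher in each library, as were 26.4% of genes. Against epithelium 8 of 9 were, all but Ptgds, beside 6.14% of genes, and against osteoblast-like cells 8 of 9, all but Pou3f4, beside 8.14%.

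**Figure D1:**
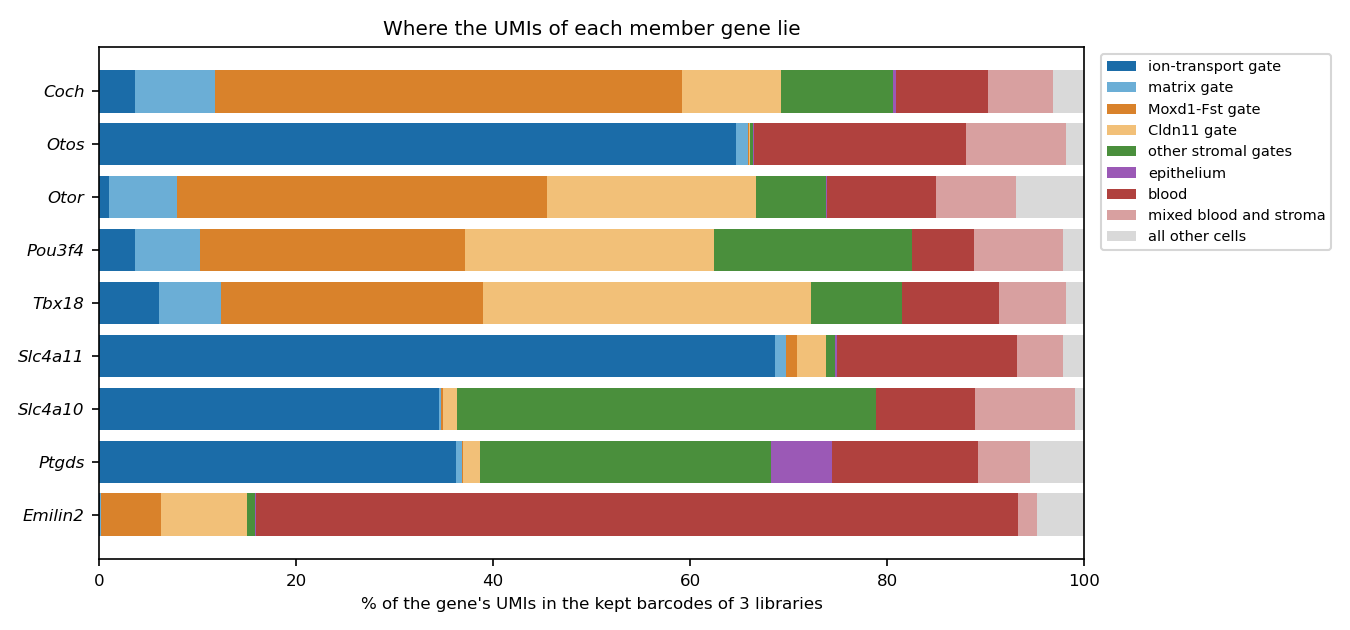
Share of each gene's UMIs (x axis, percent of its UMIs in the kept barcodes of all 3 libraries) that lies in each gate. Most Otos (64.7%) and Slc4a11 (68.7%) UMIs lay in the 104 cells of the ion-transport gate, most Coch UMIs in the Moxd1-Fst gate (47.4%) and the other fibrocyte gates, and most Emilin2 UMIs (77.4%) in blood.

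The list of members past 2-fold differed between gates, in part through values near the limit. In the ion-transport gate 6 of 9 were at least 2-fold above fibroblasts in every library (Coch, Otos, Tbx18, Slc4a11, Slc4a10, Ptgds; 3.15% of genes). In the matrix gate 5 of the 8 members with enough UMIs were (Coch, Otos, Otor, Pou3f4, Tbx18; 3.45% of genes). The Moxd1-Fst gate had 4 of 7 (Coch, Otor, Tbx18, Emilin2; 3.61% of genes) and the Cldn11 gate 4 of 8 (Pou3f4, Tbx18, Ptgds, Emilin2; 3.27% of genes). Tbx18 was the one member on all 4 lists, and none of the members was 2-fold lower in any gate. Coch in the Cldn11 gate and Pou3f4 in the Moxd1-Fst gate narrowly missed the limit, in library 1 alone. Otos is on the matrix list with 80 UMIs, 68 of them in 1 cell.

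**Figure D2:**
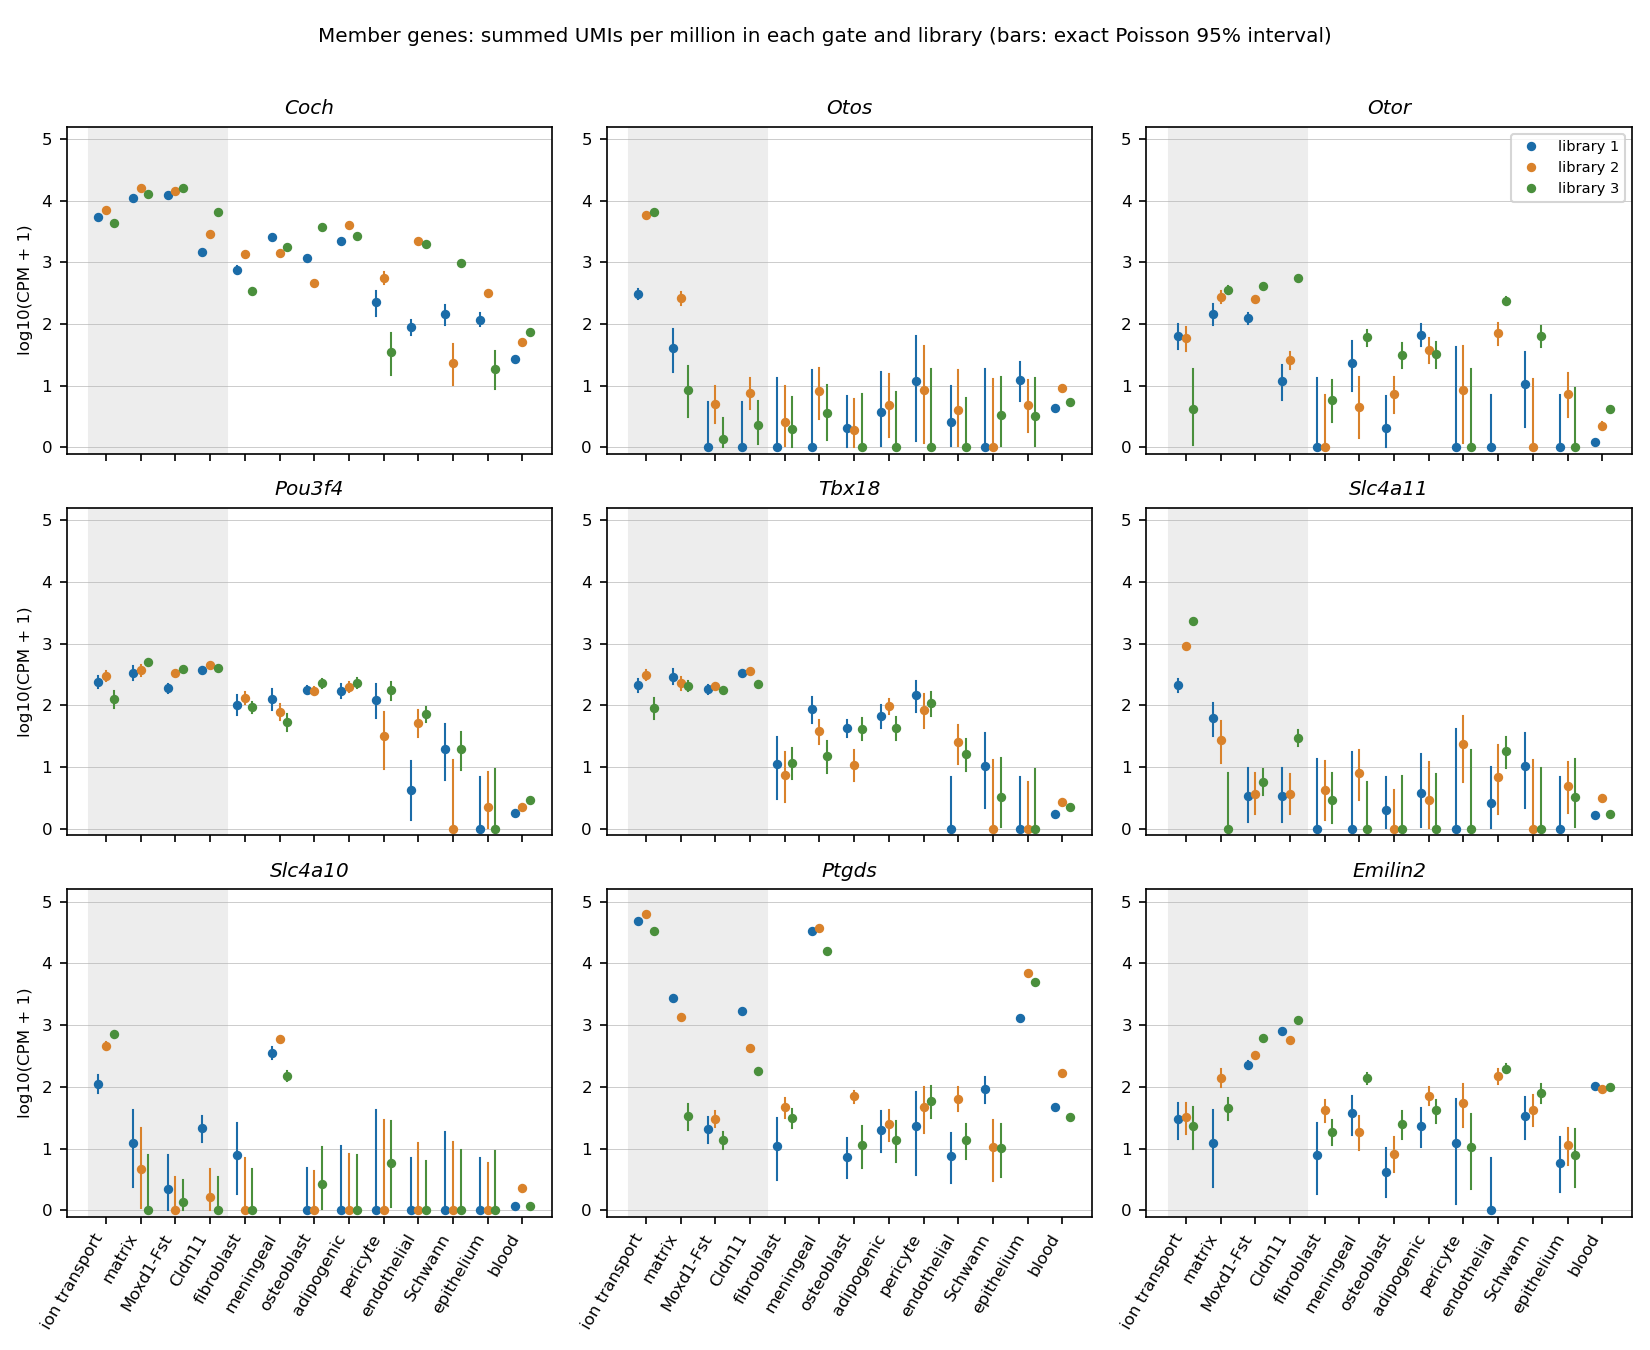
Level of each member (y axis, log10 of CPM + 1) in 13 gates (x axis) in library 1, 2 and 3 (colours), with exact Poisson 95% intervals; the grey band marks the 4 fibrocyte gates. Otos and Slc4a11 stand highest in the ion-transport gate in every library, Slc4a10 and Ptgds are high in both the ion-transport gate and meningeal stroma, and Pou3f4 and Tbx18 are present in all 4 fibrocyte gates, lowest in the ion-transport gate of library 3.

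Coch, the matrix gene, stood in the Moxd1-Fst gate at 12513 CPM (12272 to 12757), 14204 (14012 to 14397) and 15799 (15650 to 15949) in libraries 1, 2 and 3. In the matrix gate it reached 10852, 15835 and 12598 CPM, and in the ion-transport gate 5419, 6961 and 4313. The Cldn11 gate had 1482, 2906 and 6591 CPM. The Moxd1-Fst and matrix gates overlapped, and both stood above the ion-transport gate in every library, whereas the ion-transport and Cldn11 gates overlapped. Fibroblasts had 749, 1339 and 339 CPM and epithelium 117, 315 and 17.995 CPM. Nearly every Moxd1-Fst cell held a Coch UMI, 94.4% (90.6 to 97.0), 96.9% (93.6 to 98.7) and 97.2% (95.4 to 98.5), with a median of 54 UMIs per cell over the 3 libraries. Blood cells, which should lack the gene, had a Coch UMI in 4.68% (4.35 to 5.02), 14.5% (13.8 to 15.3) and 28.4% (27.4 to 29.4) of cells. Over the libraries the median depth was 4592 UMIs in the Moxd1-Fst gate and 6407 in blood. With each cell thinned to 1000 UMIs the shares were 89.3%, 92.3% and 92.0% in the Moxd1-Fst gate and 1.11%, 2.94% and 4.37% in blood.

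Within the Cldn11 gate Coch was carried by a minority of cells: 225 of the 439 had no Coch UMI, and the 44 cells with the most held 72.4% of its UMIs there. Clusters made without the 9 genes separated these cells. Cluster 9 (Itih5, Ptn; 174 cells) had 197 CPM and cluster 26 (Gpr83, Itih5; 76 cells, all from library 1) 61.2 CPM, the lowest Coch levels of the 9 clusters whose markers were those of the 4 gates. Cluster 3, marked by Rarres1 and Emcn, had the highest, 27761 CPM over 254 cells. Its level was 39272, 27482 and 26835 CPM in the 3 libraries, above cluster 1 (Col4a3, Moxd1) at 14412, 17589 and 17296 CPM. Cluster 30 (Hspa1a, Klf2; 51 cells, all from library 3) had 6576 CPM. Of the Cldn11 cells of library 3, 19.6% fell in cluster 30 and 13.9% in cluster 3. Clusters with at least 95% of their cells in 1 library were also left out, a choice made after seeing the data. The library 3 to library 1 ratio of Coch in this gate then went from 4.45 to 1.57. This takes out cells of single libraries by construction, among them the 71 of 110 library 1 cells in cluster 26, so the change tests nothing.

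Coch was also high outside the 4 gates in 2 places. The 32 chondrocyte-like cells (Acan, Matn1, Col2a1) had 5975, 22062 and 20525 CPM over 9, 5 and 18 cells, above the Moxd1-Fst gate in libraries 2 and 3. Cluster 31, led by the bone genes Ibsp, Runx2 and Alpl and by Atf3, had 13869, 12684 and 14459 CPM over 11, 9 and 28 cells, while the Bglap cluster 7 had 85.0, 157 and 422 CPM. The adipogenic stroma gate stood at 2220, 4020 and 2666 CPM, but cluster 11, which holds the Adipoq cells, at 5.13, 23.8 and 16.1 CPM, so that the Coch UMIs of that gate lay outside cluster 11.

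**Figure D3:**
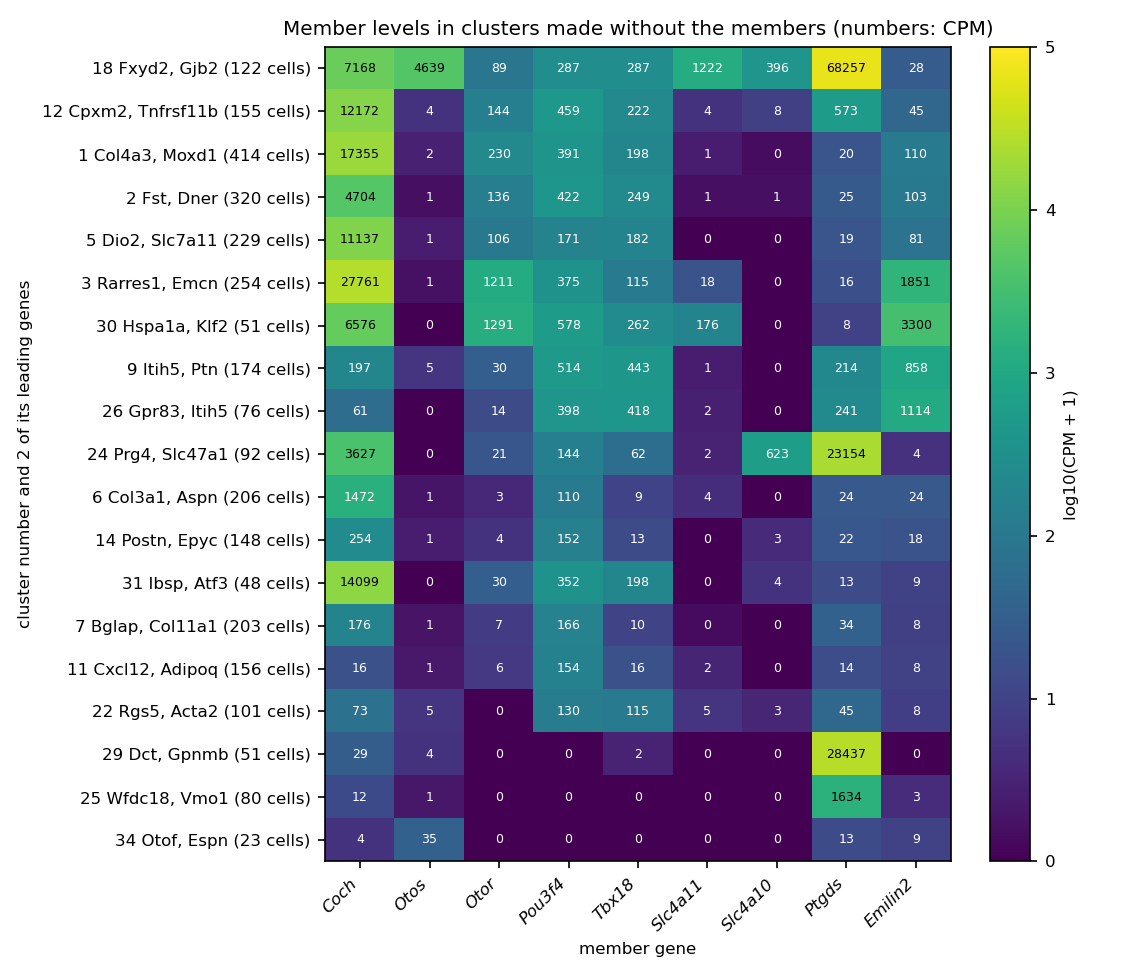
Level of each member (columns) in 19 clusters made without the members (rows, with 2 leading genes and the cell number), coloured by log10 of CPM + 1 with the CPM printed. Cluster 18 (Fxyd2, Gjb2) has the highest Otos, Slc4a11 and Ptgds, clusters 3 and 30 the highest Otor and Emilin2, and clusters 9 and 26 have high Pou3f4, Tbx18 and Emilin2 with little Coch.

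Otor, the second secreted protein of the inner ear among the members, followed Coch into the matrix and Moxd1-Fst gates but was nearly missing from fibroblasts. It stood at 122, 252 and 408 CPM in the Moxd1-Fst gate and at 146, 273 and 360 CPM in the matrix gate. Fibroblasts held no UMI in libraries 1 and 2, where a count of 0 allows up to 10.2 and 4.87 CPM, and 4.94 CPM in library 3. The ion-transport gate had 64.0, 57.4 and 3.19 CPM, the last from a single UMI. The endothelial gate had 116 CPM over the libraries, above the ion-transport gate at 42.6 CPM. Of the endothelial clusters, however, 21 and 27 held no Otor UMI and cluster 35 held 1. In the order of all gates the ranges of all neighbours over the libraries overlapped. Of the Moxd1-Fst cells 17.2% (12.6 to 22.6), 43.5% (36.9 to 50.3) and 41.4% (37.0 to 45.8) held an Otor UMI, and of the blood cells 0.116%, 0.404% and 1.79%.

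Otor and Emilin2 both peaked in clusters 3 and 30. Otor was at 573, 579 and 1471 CPM in cluster 3 and at 1291 CPM in cluster 30, and Emilin2 at 1219, 1466 and 2030 CPM in cluster 3 and at 3300 CPM in cluster 30. Cluster 1, the largest of the Moxd1-Fst clusters, had 194, 260 and 213 CPM of Otor and 27.8, 76.1 and 132 CPM of Emilin2. Within the Moxd1-Fst gate Emilin2 was seen in 207 of the 345 cells with an Otor UMI and in 190 of the 614 without, at median depths of 4935 and 4294 UMIs. In the Cldn11 gate the counts were 101 of 105 and 233 of 334, at 5937 and 4703 UMIs. These counts pool the libraries. Library 3 gave 208 of the 345 and 83 of the 105 cells with Otor, and it also had the highest Emilin2 level in both gates. The part of library differences in these counts was not tested. In the Cldn11 gate of library 3, where cluster 30 lies, Otor reached 554 CPM, against 10.8 and 25.2 CPM in libraries 1 and 2.

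Emilin2, the elastic fibre glycoprotein, was broadly present in blood as well. Its level was 103, 91.8 and 99.0 CPM in all blood cells and 173, 160 and 139 CPM in macrophages and monocytes, of which 69.9% (68.2 to 71.6), 65.9% (63.3 to 68.4) and 69.7% (67.8 to 71.6) held a UMI. Among the fibrocyte gates it was highest in the Cldn11 gate, at 794, 583 and 1197 CPM, and next in the Moxd1-Fst gate, at 228, 331 and 610 CPM. The ranges of these 2 gates over the libraries overlapped slightly, though within each library the Cldn11 gate was the higher. Both stood above the macrophages and monocytes, and above the endothelial gate, at 0, 148 and 197 CPM, in every library. Emcn, a marker of the endothelial gate, also leads clusters 3 and 30. The ion-transport gate (28.8, 31.3 and 22.4 CPM) and the matrix gate (11.2, 139 and 43.8 CPM) lay at or below the blood level but for the matrix gate of library 2. With the clusters of 1 library left out Emilin2 was no longer 2-fold above blood in every library, which left 8 of the 9 members. The Emilin2 ratio of library 3 to library 1 in the Moxd1-Fst gate then went from 2.68 to 1.31. This took out cluster 5, with 174 of the 233 library 1 cells of that gate, so the change tests nothing.

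The transcription factor genes Pou3f4 and Tbx18 were present in all 4 fibrocyte gates in every library. Pou3f4 stood at 337, 375 and 497 CPM in the matrix gate, at 370, 452 and 405 in the Cldn11 gate, at 188, 336 and 391 in the Moxd1-Fst gate and at 243, 300 and 125 in the ion-transport gate. The ranges of neighbouring gates over the libraries overlapped all along this order, though within each library the Cldn11 gate was above the Moxd1-Fst gate. Other stroma had the gene as well, with 176, 171 and 230 CPM in osteoblast-like cells and 102, 130 and 93.8 CPM in fibroblasts. Epithelium had 1 UMI in all, found in library 2. Pou3f4 was thus found across the stromal gates and in next to no epithelial cell.

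Tbx18 was lower in most of the other stroma. It was at 339, 363 and 224 CPM in the Cldn11 gate, at 292, 228 and 208 in the matrix gate, at 214, 313 and 89.5 in the ion-transport gate and at 183, 204 and 178 in the Moxd1-Fst gate. Fibroblasts had 10.2, 6.49 and 10.9 CPM, and epithelium no UMI, which allows up to 4.93, 3.89 and 6.75 CPM. Pericytes and smooth muscle cells came next after the 4 gates with 145, 83.8 and 108 CPM, below the Moxd1-Fst gate in every library. Among the clusters the bone-led cluster 31 had 308, 89.3 and 155 CPM over 11, 9 and 28 cells, above the Moxd1-Fst gate in library 1 alone. Fluctuation between libraries was small in the Moxd1-Fst gate, where the highest library was 1.14 times the lowest (0.985 to 1.32).

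Pou3f4 and Tbx18 were often seen in the same cells, to a degree that differed between gates. In the Cldn11 gate 266 of the 341 cells with a Pou3f4 UMI also held Tbx18, against 46 of the 98 without, but the first were also deeper, with medians of 5855 and 3471 UMIs. The shares with Tbx18 were 75% and 25% in the ion-transport gate and 60.7% and 44.7% in the Moxd1-Fst gate. In the matrix gate they were 65.5% and 50%, and in its library 2 alone 70% and 71.4%. Cells with Pou3f4 had the higher median depth in these gates as well. Cluster 9 of the Cldn11 stroma had Pou3f4 at 514 CPM and Tbx18 at 443 CPM, and cluster 26, which shares the leading gene Itih5 and came from library 1 alone, 398 and 418 CPM. The same 2 clusters had the low Coch levels given above and Emilin2 at 858 and 1114 CPM. Otor was at 29.6 and 13.6 CPM there.

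Otos, the gene of otospiralin, lay mostly in the ion-transport gate. There it stood at 307 CPM (249 to 375), 5787 (5549 to 6033) and 6629 (6347 to 6921), from 96, 2219 and 2075 UMIs. The matrix gate had 39.3, 258 and 7.62 CPM, and 1 cell of it held 68 of its 80 UMIs. The Moxd1-Fst and Cldn11 gates were at or below 6.62 CPM in every library, and fibroblasts at or below 1.62. The ion-transport gate was thus above all other gates in each library, while the ranges of all other neighbours in the order overlapped. Blood cells stood at 3.30, 8.33 and 4.37 CPM and held 21.4% of all Otos UMIs, in 0.893% (0.751 to 1.05), 2.24% (1.93 to 2.58) and 2.24% (1.93 to 2.58) of the cells.

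Few cells carried Otos. Of the 104 cells in the ion-transport gate, 25 had at least 10 UMIs, 3 of 35 in library 1, 10 of 36 in library 2 and 12 of 33 in library 3. These 25 cells held 98.2% of the gate's Otos UMIs, 14 cells with at least 50 held 91.8%, and 61 cells had none. The highest cell had 665. Dividing the gate at 10 UMIs was done after the values were seen, so what follows describes these cells and tests nothing.

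The transporter gene Slc4a11 followed the Otos cells. It had a UMI in 23 of the 25 Otos-rich cells and in 11 of the other 79, with 4200 and 366 CPM, at like depths (medians of 7043 and 7154 UMIs). Slc4a10 was found in 20 of 25 and 23 of 79, with 1195 and 236 CPM, Coch in 25 of 25 and 52 of 79, with 11526 and 4167 CPM, and Ptgds in 25 of 25 and 70 of 79, with 96921 and 37412 CPM. Over the libraries together Pou3f4 (210 and 233 CPM) and Tbx18 (224 and 210 CPM) were alike in both, but not library by library. In libraries 1, 2 and 3 Pou3f4 was at 393, 192 and 181 CPM in the Otos-rich cells. It was at 231, 338 and 104 CPM in the others. Tbx18 was at 393, 232 and 169 CPM against 200, 341 and 60.9 CPM. The gate's own markers split the other way in part. Fxyd2, a subunit of the sodium pump, had no UMI in the Otos-rich cells and 1742 UMIs in 14 of the other 79, while Slc12a2, the sodium-potassium-chloride cotransporter, was at 2053 and 447 CPM. No cell of the gate had both a Fxyd2 UMI and at least 10 Otos UMIs.

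**Figure D4:**
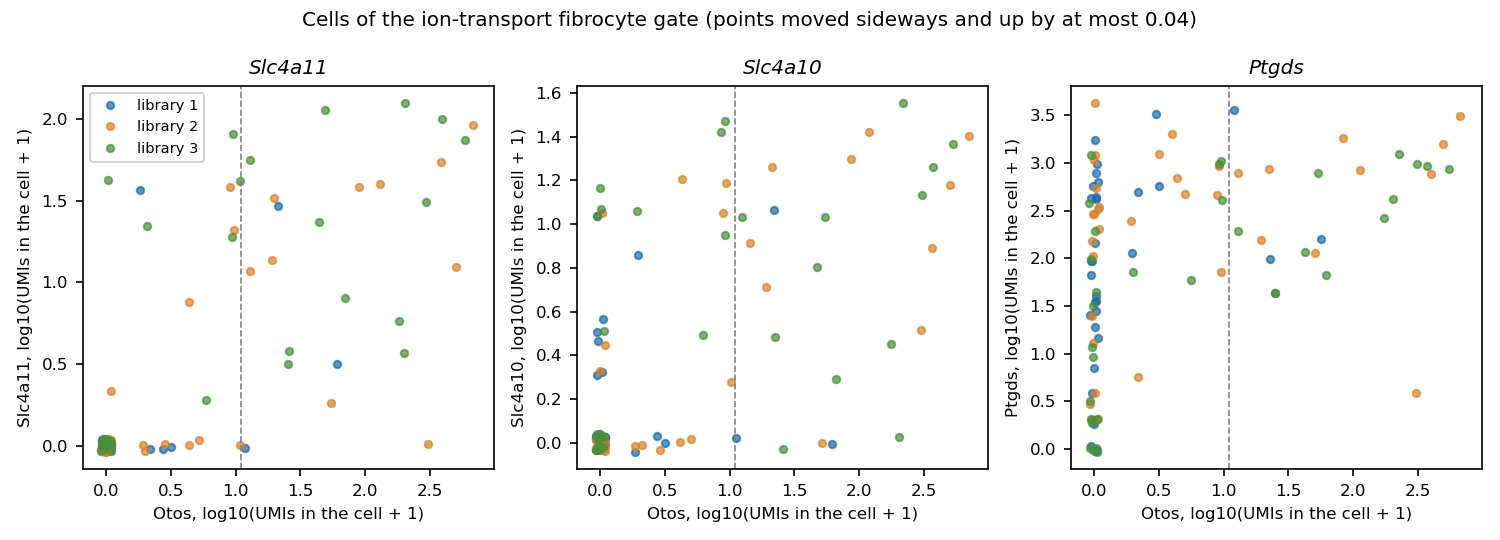
UMIs of Slc4a11, Slc4a10 and Ptgds (y axes, log10 of UMIs + 1) against Otos (x axis, same scale) in each of the 104 cells of the ion-transport gate, coloured by library; the dashed line marks 10 Otos UMIs. Of the 25 cells right of the line 23 hold Slc4a11 and all hold Ptgds, and only 3 of the 25 come from library 1.

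Over the whole ion-transport gate Slc4a11 was at 211 CPM (163 to 269), 902 (810 to 1003) and 2374 (2206 to 2551). The matrix gate had 61.8, 26.2 and 0 CPM and the Moxd1-Fst gate 2.44, 2.70 and 4.79. By the ranges over the libraries only the ion-transport gate stood apart from the next in the order. Of its cells 8.57% (1.80 to 23.1), 36.1% (20.8 to 53.8) and 54.5% (36.4 to 71.9) held a UMI, and of the blood cells 0.250%, 0.539% and 0.881%. In the Cldn11 gate the level was 2.39 and 2.65 CPM in libraries 1 and 2 and 28.8 CPM in library 3, where cluster 30 had 176 CPM. Without the clusters of 1 library, clusters 26 and 30 among them, the ratio of library 3 to library 1 in the Cldn11 gate went from 12.1 to 1.28. This takes out cells of single libraries by construction, and library 1 held only 2 Slc4a11 UMIs in this gate, so the change tests nothing.

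Slc4a10 was high in both meningeal stroma and the ion-transport gate. The meningeal stroma gate (Slc6a13, Slc22a6, Foxc2; 26, 34 and 41 cells) had Slc4a10 at 353, 603 and 150 CPM, and the ion-transport gate at 112, 456 and 719 CPM. The ranges of these gates overlapped, and both stood above the Cldn11 gate, at 20.3, 0.662 and 0 CPM. By share, 42.3% of the Slc4a10 UMIs lay in meningeal stroma and 34.5% in the ion-transport gate. No Slc4a10 UMI was seen in the epithelium, where a count of 0 allows the same levels as for Tbx18. Cluster 24 (Prg4, Slc47a1; 92 cells) had Slc4a10 at 475, 794 and 490 CPM and Ptgds at 7588, 20644 and 39816 CPM, with no Otos UMI.

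Ptgds was high in the ion-transport gate and in several gates beyond it. It stood at 48061 (47295 to 48836), 63370 (62575 to 64172) and 33957 (33314 to 34609) CPM there and at 33446, 36902 and 15925 CPM in meningeal stroma. The 42 melanocyte-like cells, which take in the intermediate cells of the stria, had 9539, 21147 and 10584 CPM, and every one held a UMI. The 11 marginal-like cells had 19275, 68865 and 75973 CPM over 3, 6 and 2 cells, above the ion-transport gate in libraries 2 and 3. Epithelium as a whole had 1287, 7080 and 4994 CPM. Meningeal stroma stood above epithelium in every library. The ranges of the ion-transport and meningeal gates over the libraries overlapped, though within each library the ion-transport gate was the higher. The Moxd1-Fst gate had 19.5, 29.8 and 12.9 CPM, below the blood cells at 46.5, 165 and 31.1 CPM, and its Ptgds is not told apart from RNA outside cells.

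Libraries differed within the gates, and a difference between libraries is not one between the noise groups. At least 2-fold between the highest and lowest library were 6 of 9 members in the ion-transport gate (Otos, Otor, Pou3f4, Tbx18, Slc4a11, Slc4a10), where 43.2% of genes were. The count was 4 of 7 in the matrix gate (Otos, Otor, Ptgds, Emilin2; 35.7% of genes), 4 of 6 in the Moxd1-Fst gate (Otor, Pou3f4, Ptgds, Emilin2; 25.4%) and 5 of 7 in the Cldn11 gate (Coch, Otor, Slc4a11, Ptgds, Emilin2; 24.2%). The median ratio of the members was 3.499, 2.467, 2.19 and 4.45 in this order of gates, and that of all genes 1.84, 1.74, 1.55 and 1.53. In the Moxd1-Fst gate 2 members were left with the clusters of 1 library taken out, and in the matrix gate 2 with at least 100 UMIs asked for.

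In the ion-transport gate the members moved in 2 directions. Otos was 21.6 times higher in library 3 than in library 1 (17.6 to 26.8), Slc4a11 11.2 times (8.73 to 14.7) and Slc4a10 6.42 times (4.48 to 9.45). These intervals cover counting error alone: with other settings the Otos ratio was 77.4 (stricter gate), 36.9 (clusters) and 65.7 (mitochondrial maximum of 10%), the Slc4a11 ratio 17.4 (clusters) and 61.1 (10%), and the Slc4a10 ratio 21.3 (clusters). Pou3f4 and Tbx18 were highest in library 2 and lowest in library 3, 2.41 times apart (1.66 to 3.56) and 3.499 times (2.30 to 5.49), the latter 6.02 times at 10%. Coch (1.61 times) and Ptgds (1.87 times) stayed under 2-fold. The 7 markers of the gate moved too, in different ways. Fxyd2 was at 2735, 2066 and 304 CPM, Ucma at 1123, 475 and 192, Gjb2 at 1340, 1677 and 422 and Lypd2 at 54.4, 80.8 and 3.19, all lowest in library 3. Slc12a2 was at 374, 1166 and 690 CPM, lowest in library 1, while Atp1b1 (1372, 2102 and 1380) and Gjb6 (681, 775 and 591) were highest in library 2. Summed erythroid markers in the gate stood at 67.2, 9305 and 26274 CPM, summed epithelial markers at 704, 279 and 134 CPM, and the median mitochondrial share at 13.1%, 8.75% and 10.1%. The part of these in the library differences was not tested.

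The library difference was also seen within cluster 18, which was made without the members and has Fxyd2 and Gjb2 among its leading genes. It is no independent view, since 22 of 35, 30 of 36 and 22 of 33 cells of the gate lie in this cluster. Cells with an Otos UMI were 8 of 51, 23 of 42 and 19 of 29 of the cluster, so its share of Otos cells differed between libraries. There Otos was at 307, 5091 and 11320 CPM, Slc4a11 at 230, 796 and 4004 and Slc4a10 at 50.7, 370 and 1077, over 51, 42 and 29 cells. Ptgds in the same cells was nearly level at 66461, 72268 and 61987 CPM, and Pou3f4 stood at 295, 309 and 219 CPM, 1.41 times apart between libraries 2 and 3. Tbx18 was at 331, 318 and 133 CPM, still lowest in library 3. Among the Otos-rich cells alone Slc4a11 was at 1443, 2863 and 6557 CPM and Otos at 3935, 21979 and 24625, over 3, 10 and 12 cells.

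The make-up of the gates also differed between libraries. In the ion-transport gate 22 of 35, 30 of 36 and 22 of 33 cells fell in cluster 18 in libraries 1, 2 and 3. Cluster 24, classed as meningeal stroma, held 6, 3 and 3 of its cells. Cluster 25, classed as general epithelium, held 4, 2 and 3. The part of this in the library differences of that gate was not tested. Of the Moxd1-Fst cells of library 1, 74.7% fell in cluster 5 (Dio2, Slc7a11, Ccl2), which had 227 cells of library 1 and 2 of library 3. Its Coch was at 11147 CPM and its Otor and Emilin2 at 107 and 81.5 CPM in library 1. Of the Cldn11 cells 64.5% fell in cluster 26 in library 1, and 68.3% and 41.6% in cluster 9 in libraries 2 and 3. In the matrix gate of library 1, 8 of 32 cells fell in cluster 18, and Ptgds was at 2779 CPM there, against 1382 and 32.4 CPM in libraries 2 and 3. Doublets called by scrublet were 1 of 104 cells in the ion-transport gate and 15 of 439 in the Cldn11 gate.

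For each member the genes with the most like pattern were sought over 48 profiles, 16 cell classes in 3 libraries, among 14393 genes by Pearson's r of log2(CPM + 1). The profiles share libraries and depth, so these values describe and carry no test. Coch was most like Tnfrsf11b (0.95), Slc1a2 (0.94) and Cp (0.93), and Otor like the gate marker Moxd1 (0.90), Nnat (0.88) and Epha5 (0.86). Pou3f4 was most like Pou3f3 and Ddr2 (both 0.97) and Colec12 (0.96), and Tbx18 like Zic5 (0.93), Zic2 (0.92) and Pou3f4 itself (0.91). Otos was most like Cldn9 (0.81), Slc4a11 (0.79) and Veph1 (0.78), and Slc4a11 like Cldn9 and Otos (both 0.79) and Gm525 (0.75). Slc4a10 paired with Ptgds (0.90), Asgr1 (0.88) and Mpzl2 (0.88), and Ptgds with the gate marker Gjb6 (0.93), Mpzl2 (0.93) and Slc4a10 (0.90). Emilin2 had no close partner, the nearest being Calb2 (0.66), Hgd (0.65) and Tex15 (0.64).

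Relatives of the members were called by the same rule, the 4 fibrocyte gates against fibroblasts in every library, which 3.18% of all genes passed as higher and 3.58% as lower. The lists were chosen with earlier results known, and nothing particular to a list is read from its count. Of the other SLC4 transporters 6 of 8 had enough UMIs, 1 was higher (Slc4a8, with 15.4, 23.4 and 28.4 CPM against 3.40, 3.25 and 1.98) and none lower. Slc4a1 (68.4 CPM over the 4 gates), Slc4a2 (28.996 CPM) and Slc4a4 (27.7 CPM) passed in neither direction, and Slc4a1 is the anion exchanger of red cells. Of the EMILIN and multimerin genes 2 of 4 had enough UMIs and none passed, with Emilin1 at 59.1, 48.9 and 39.8 CPM against 91.9, 92.5 and 91.9 in fibroblasts, Mmrn2 at 1.84 CPM and Mmrn1 at 0.552 CPM over the 4 gates.

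Among genes related to Otor and Coch by the MIA fold or the LCCL domain, none of 8 was higher and 3 were lower. Mia stood at 23.3, 7.14 and 4.93 CPM against 497, 1061 and 539 in fibroblasts, and Crispld1 and Crispld2, named after their values were seen, were the other two. Mia3 (131 CPM), Mia2 (68.9 CPM) and Dcbld2 (27.6 CPM) passed in neither direction. Mia and Otor, which belong to 1 family, were thus called in opposite directions in the same cells.

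Of 22 transcription factors of the POU III and T-box families and the otic mesenchyme, 17 had enough UMIs, 2 were higher and 4 lower. Pou3f3, the close relative of Pou3f4, was at 252, 390 and 293 CPM against 116, 164 and 126, and Zic2 at 171, 211 and 136 CPM against 27.2, 30.8 and 16.8. Foxc1 (380 CPM) and Eya4 (156 CPM) passed in neither direction. The lower genes, named after their values were seen, were Tbx15, Prrx1, Meis1 and Meis2.

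In the prostaglandin and retinoid list 17 of 20 genes had enough UMIs. Ptgs2, the inducible cyclooxygenase, was higher at 144, 172 and 85.9 CPM against 13.6, 14.6 and 1.98, as was Crabp2, and Ptgis was lower, both of these named after their values were seen. Ptges3 (236 CPM) and Rbp4 (113 CPM) passed in neither direction. Ptgs2 lay in the Moxd1-Fst (205 CPM) and matrix (185 CPM) gates rather than in the ion-transport gate (14.9 CPM), which had the highest Ptgds of the 4.

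Of 18 other deafness genes of the lateral wall 11 had enough UMIs, 2 were higher and none lower. Both are the type IV collagen chains of Alport syndrome, Col4a3 at 293, 170 and 399 CPM against 13.6, 22.7 and 12.8, and Col4a4 at 293, 235 and 425 CPM against 44.2, 27.6 and 23.7. Among the 4 gates both had their highest level over the 3 libraries in the Moxd1-Fst gate, at 544 and 580 CPM. Serpinb6a (121 CPM over the 4 gates) and Col4a5 (30.2 CPM) passed in neither direction.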

How the data were processed

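The deposited table holds whole-number UMI counts per gene and barcode, written by Cell Ranger 7.1.0 per the file headers. The submitters' processing notes name GRCm39 as the genome build. How cells were called and the libraries joined is not stated in those sources. The members and all lists were chosen with earlier results of these data known, and the scoring rule of the gates was set after seeing the data.

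Cells with at least 0.1% of their UMIs in 6 blood markers were set aside as blood. Any other cell entered the gate with the highest standardised mean log2 marker level, provided 40% of that list's markers had a UMI. Counts were summed per gate and library and scaled to CPM. A call needed at least 20 summed UMIs and a 2-fold difference, in the same direction in each library where gates were compared. The floor for a count of 0 was 3 counts. Doublets called by scrublet were kept in the values given and left out as an alternative. Clusters were made without the 9 members: 2000 variable genes, 30 principal components, 15 neighbours, Leiden resolution 1.5 (scanpy 1.11.5, igraph 0.11.9). The calls were tested on simulated data. Scripts ran in Python 3.11.15 with pandas 2.3.3 and scipy 1.17.1, and edgeR 4.0.16 in R 4.3.3 gave TMM factors alone. No p-value was computed.

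Named are all 9 members, per member the 3 genes most like it, per list up to 4 genes with the highest CPM in the fibrocyte gates, and markers of gates or clusters. For 1 gene that this rule names, the result is not reported here. Alternatives were a stricter gate, clusters as classes, a mitochondrial maximum of 10% or none, other minimums of UMIs, cells thinned to 1000 UMIs, mean CPM over cells, the blood level taken off and TMM factors. No maximum, and leaving out clusters of 1 library, were added after seeing the data.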

Additional observations from a re-analysis of the deposited data

Results flagged for a closer look

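Barcodes over the mitochondrial maximum of 20%, 1294 in all (450, 241 and 603 in libraries 1, 2 and 3), stood outside every comparison. In these barcodes 5 members had a higher CPM than in the kept barcodes, though not more UMIs. Otos was at 198 CPM in them and at 18.4 CPM in the kept barcodes, with 29.1, 674 and 134 CPM in libraries 1, 2 and 3, and 93.6% of these UMIs lay in 23 barcodes that met the ion-transport gate. Slc4a11 was at 85.5 CPM against 4.57, with 96.8% in those 23 barcodes. Slc4a10 was at 34.5 CPM against 3.42, Tbx18 at 15.4 CPM against 9.56 (in library 3 the other way, 5.94 against 9.02), and Ptgds at 4598 CPM against 375. The 23 barcodes, 12, 6 and 5 per library, are 18.1% of all that met the ion-transport gate, while the other 3 fibrocyte gates lost at most 0.312%. The marginal-like gate lost 52.2% and the melanocyte-like gate 34.4%. Within the 23 barcodes Otos was at 299, 7391 and 4965 CPM and Slc4a11 at 435, 2323 and 2904 CPM in libraries 1, 2 and 3, again lowest in library 1.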

How the results depend on the processing

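Of the counts of members, 109 kept within 1.5 times of the value given and 2 did not. The count of members 2-fold apart between libraries in the matrix gate was 2 with at least 100 UMIs (4 in the report), and in the Moxd1-Fst gate 2 without the clusters of 1 library (4 in the report); fewer genes and fewer cells enter there. Of 63 recomputed levels 33 moved outside their counting interval and 30 did not. Of the 33, 1 moved over 1.5 times, Slc4a11 in the ion-transport gate at a mitochondrial maximum of 10%, from 1145 to 697 CPM. Of the ratios between libraries 104 kept, 27 moved and 2 reversed. With clusters as classes the ratio of library 2 to library 3 for Otos in the matrix gate was 0, and that of library 2 to library 1 for Emilin2 there was 0.603; the cause was not tested. Pou3f4 was 1.41 times apart in clusters, under the 2-fold limit. Of 9 shares of cells 7 fell on thinning to 1000 UMIs. No paired analysis was possible because each group has 1 library, and no library is tied to a group. In library 1 the Otos level of the ion-transport gate rests on few cells, since 3 of them hold 90 of its 96 UMIs.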
